A study of Homo sapiens with 5 samples.

Results

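The expression of 10 regulators of apoptosis of the BCL2 family was described in gefitinib-resistant and gefitinib-sensitive HCC827 lung adenocarcinoma cells. The members were the anti-apoptotic genes BCL2, BCL2L1 and MCL1, the BH3-only genes BCL2L11, BBC3, PMAIP1, BMF and BID, and the effector genes BAX and BAK1. They were found by gene symbol among the 37181 entries of the expression table, and where a symbol had several entries the one with the highest mean over the 5 libraries was taken. No measured difference between the groups entered that choice of entry, but the members themselves were chosen with earlier results of these data known. All 10 members were found, and 9 of them were among the 16189 entries whose level averaged 0.5 FPKM or more, which were tested. BBC3 was below that level. FPKM is the number of sequenced fragments of a transcript, scaled to its length and to the mapped fragments of the library.

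HCC827 is a human cell line whose genotype label is a deletion in exon 19, in this line of the receptor gene EGFR, and both groups carry it. The resistant group, HCC827/GR, is 1 line derived from HCC827 by rising doses of gefitinib, an EGFR inhibitor, over more than 6 months, and it was sequenced as replicates 1, 2 and 3. The sensitive group is the parental line, HCC827, sequenced as replicates 2 and 3. The sources do not say whether replicates of a group came from separate cultures, so the p-values measure only the spread between these libraries, which may be technical.

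The table holds FPKM and no read counts, so the depth of each library and the counting error of each value are unknown. Between 8896 and 9803 entries per library were listed at 0. Epithelial marker RNA was found in both groups, but at lower levels in HCC827/GR. Of 7 markers of lung epithelium and adenocarcinoma, 5 had an entry, none was at 0, and their summed FPKM was 535, 566 and 438 in HCC827/GR against 1030 and 1160 in HCC827. KRT18, a keratin of simple epithelia, was the most abundant of them with a mean of 348 FPKM. The sum was mostly that of the keratins KRT18, KRT8 and KRT19. The thyroid transcription factor NKX2-1 was at 0.963, 0.762 and 0.415 FPKM in HCC827/GR against 4.6 and 4 FPKM in HCC827. EPCAM was at 7.32, 10.8 and 8.53 FPKM in HCC827/GR against 86.9 and 72.6 FPKM in HCC827, a ratio of means of 0.111. All 5 markers were lower in each HCC827/GR library than in both HCC827 libraries. In bulk RNA, fewer cells with a gene and less of its RNA per cell cannot be told apart. Of 4 leukocyte markers 3 had an entry, with a sum of 34.8, 33 and 38.3 FPKM in HCC827/GR against 30.8 and 39 FPKM in HCC827, nearly all of it from CD68, a lysosomal protein (mean 35.1 FPKM). PTPRC, the defining pan-leukocyte gene, stayed at or below 0.0228 FPKM. The summed fibroblast markers stayed between 0.667 and 1.15 FPKM, and COL1A1 was the most abundant of them. Endothelial PECAM1 was listed at 0 in all 3 HCC827/GR libraries and at 4.34 and 3.32 FPKM in HCC827, while VWF and CDH5 were at or below 0.0749 FPKM in all libraries. The part of these marker differences in the values of the BCL2 family was not tested.

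Proteins of the BCL2 family decide whether the outer membrane of the mitochondrion is opened, the step that releases cytochrome c and starts the caspase cascade. BAX and BAK1 form the pores, the anti-apoptotic members hold them and the BH3-only proteins in check, and the BH3-only proteins carry stress signals into the family by binding the groove of the anti-apoptotic members or by activating the effectors. In lung cancer cells that depend on mutant EGFR, the BH3-only protein BIM, the product of BCL2L11, is well known for its part in the death that EGFR inhibitors cause.

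What the members share is the BH3 motif, the short helix through which they bind one another. The coding bases around it are shown because the 3 classes differ in what surrounds this motif and not in having it. Each line gives 39 coding bases from GENCODE release 29 (GRCh38), 5′ to 3′ on the gene's strand. The capitals mark 6 codons: a leucine codon, any 3 codons, a glycine or alanine codon, and an aspartate codon. Each member's principal transcript held exactly 1 such stretch, with glycine at the fifth codon in 8 members and alanine in 2, BBC3 and BMF.
BCL2 (chr18:63318349-63318387, minus strand, exon 2 of 3): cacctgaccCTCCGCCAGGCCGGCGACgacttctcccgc
BCL2L1 (chr20:31721922-31721960, minus strand, exon 2 of 3): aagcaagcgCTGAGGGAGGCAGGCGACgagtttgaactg
MCL1 (chr1:150578865-150578903, minus strand, exon 1 of 3): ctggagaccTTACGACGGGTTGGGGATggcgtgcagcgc
BCL2L11 (chr2:111150094-111150132, plus strand, exon 4 of 5): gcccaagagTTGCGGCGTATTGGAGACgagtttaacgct
BBC3 (chr19:47226579-47226617, minus strand, exon 3 of 4): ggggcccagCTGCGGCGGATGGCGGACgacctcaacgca
PMAIP1 (chr18:59902664-59902702, plus strand, exon 2 of 2): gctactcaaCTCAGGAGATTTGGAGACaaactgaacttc
BMF (chr15:40104195-40104233, minus strand, exon 4 of 5): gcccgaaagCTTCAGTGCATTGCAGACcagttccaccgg
BID (chr22:17739415-17739453, minus strand, exon 4 of 6): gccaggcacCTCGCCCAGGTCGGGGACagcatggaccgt
BAX (chr19:48955778-48955816, plus strand, exon 3 of 6): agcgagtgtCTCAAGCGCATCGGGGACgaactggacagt
BAK1 (chr6:33575387-33575425, minus strand, exon 4 of 6): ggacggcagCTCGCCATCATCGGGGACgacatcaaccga

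The question was whether pro- and anti-apoptotic members stood at different levels in HCC827/GR and HCC827. None of the 9 members tested passed an adjusted p under 0.05 in either direction (limma on log2(FPKM + 1), Benjamini-Hochberg adjustment over all 16189 entries), against 5.26% of all entries tested that were higher in HCC827/GR and 5.71% that were lower. At an unadjusted p under 0.05 there was 1 member, BCL2, which was higher and passed the filter on low values only through HCC827/GR, and no lower member, against 13.4% and 13.8% of all entries. BCL2 was also the 1 member that reached a fold change of at least 2 with an unadjusted p under 0.05, a combination met by 2.96% of entries upward and by 3.97% downward with a fold of at most 0.5. Ballgown's model called no member either, but in the whole table it called only 6 entries higher and 9 lower.

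By direction alone, the 3 anti-apoptotic members all had a log2 fold change above 0, with a median of 0.42, and the 6 pro-apoptotic members tested were split into 3 above and 3 below 0, with a median of -0.05. The median over all entries tested was 0. Of the anti-apoptotic members, MCL1 was below 0 without HCC827/GR replicate 1 and BCL2L1 was below 0 by Ballgown's model. The anti-apoptotic median was 0.86 without HCC827/GR replicate 1, 0.25 without HCC827 replicate 2 and 0.67 without HCC827 replicate 3. The pro-apoptotic median ranged from -0.12 without HCC827 replicate 3 to 0.03 without HCC827 replicate 2. The libraries of the 2 groups did not overlap for 3 of the 9 members: BCL2 was higher in HCC827/GR, and BCL2L11 and BAX were lower. Among all entries tested, 22.8% did not overlap and were higher and 23.4% did not overlap and were lower, so the members' counts lie near the background.

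**Figure D1:**
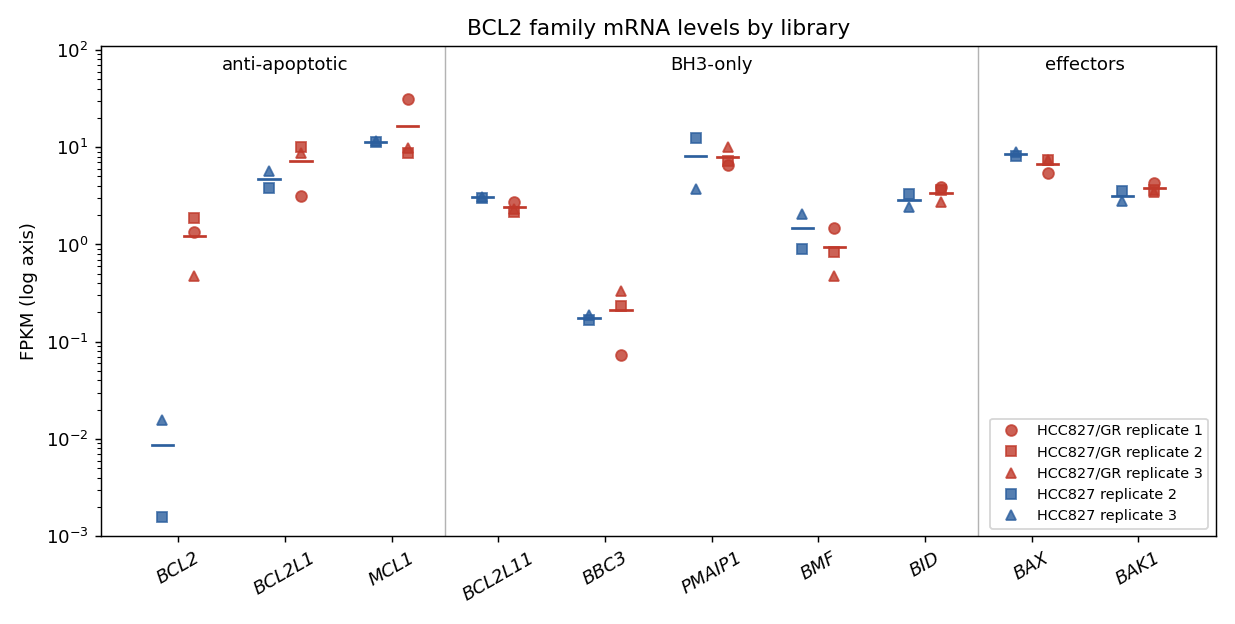
FPKM of each member in each library on a log axis, with HCC827 in blue and HCC827/GR in red, the mean of each group as a bar and the 3 classes separated by lines. BCL2 lies at or below 0.0158 FPKM in both HCC827 libraries and between 0.475 and 1.85 FPKM in HCC827/GR, and MCL1 stands at 31.3 FPKM in HCC827/GR replicate 1 alone.

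BCL2, the founding anti-apoptotic member and the target of the drug venetoclax, differed most between the lines. It lies on the minus strand at chr18:63123346-63320128. Its level was 1.34, 1.85 and 0.475 FPKM in HCC827/GR replicates 1, 2 and 3, and 0.00158 and 0.0158 FPKM in HCC827 replicates 2 and 3. All HCC827/GR libraries were above both HCC827 libraries, which were close to 0, and replicate 3 was the lowest of the resistant libraries. The means were 1.22 ± 0.696 FPKM (SD, n = 3) and 0.00868 ± 0.0100 FPKM (SD, n = 2), a ratio of 141 that rests on HCC827 values near 0 whose counting error is unknown. With 1 FPKM added before the logarithm, so that the change of so low a gene is understated, the log2 fold change was 1.09 (SE 0.31, 95% interval 0.27 to 1.90, limma adjusted p = 0.105).

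For BCL2 the adjusted p was 0.0491 with a pseudocount of 0.1 FPKM, with a log2 fold change of 3.44, and 0.0428 without HCC827/GR replicate 3, with a log2 fold change of 1.36. Over the alternatives that tested BCL2 the adjusted p ran from 0.0428 to 0.339. With the filter at 1 FPKM BCL2 was not tested, since its mean over the libraries was 0.737 FPKM. Even in HCC827/GR the level was modest: it stood at the 29.2 percentile of entries tested, against the 1.19 percentile in HCC827.

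BCL2L1 encodes BCL-XL, which protects many epithelial cells, as well as the shorter pro-apoptotic splice form BCL-XS, and the value of an entry joins the forms. The gene lies on the minus strand at chr20:31664452-31723989. Its level was 3.15, 10 and 8.64 FPKM in HCC827/GR against 3.80 and 5.71 FPKM in HCC827. Replicates 2 and 3 of HCC827/GR were above both HCC827 libraries and replicate 1 was below them, so the groups overlapped. The log2 fold change was 0.42 (SE 0.48, 95% interval -0.82 to 1.67, limma adjusted p = 0.631) and ranged from 0.16 without HCC827/GR replicate 2 to 0.86 without HCC827/GR replicate 1. Ballgown's model gave -0.17. The interval includes a doubling as well as a fall.

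MCL1, a short-lived anti-apoptotic protein, had the highest mean FPKM of the members in both lines, in HCC827/GR through replicate 1. It lies on the minus strand at chr1:150574551-150579738. Its entry joins 4 MCL1 transcripts with 1 transcript of the antisense gene ADAMTSL4-AS1 and 2 transcripts assembled by the authors. The level was 31.3, 8.66 and 9.89 FPKM in HCC827/GR against 11.2 and 11.6 FPKM in HCC827. Replicate 1 of HCC827/GR was far above every other library, and the remaining resistant libraries were below both parental ones. The log2 fold change was 0.28 (SE 0.57, 95% interval -1.21 to 1.77, limma adjusted p = 0.808), and without that replicate it turned to -0.28 with an adjusted p of 0.293.

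HCC827/GR replicate 1 thus decided the direction for MCL1 and held the lowest value of BCL2L1. It was over 2-fold above each of the other libraries in 103 of the entries tested, or 0.636%, and MCL1 was among them. It was under 0.5-fold of both other resistant libraries in 560 entries, or 3.46%, and BCL2L1 was among those. The residual SD on the log2 scale was 0.78 for MCL1 and 0.65 for BCL2L1, against a median of 0.18 over all entries tested.

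**Figure D2:**
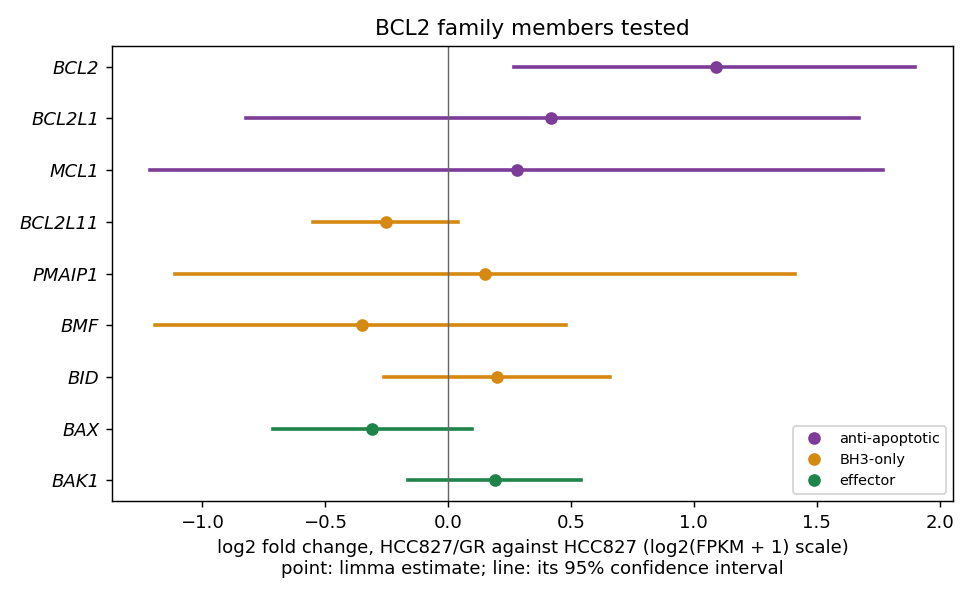
Log2 fold change, HCC827/GR minus HCC827 in log2(FPKM + 1), for the 9 members tested, with the limma estimate as a point and its 95% confidence interval as a line, coloured by class. The interval of BCL2, from 0.27 to 1.90, lies above 0, and the intervals of the other 8 members include 0.

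Among the BH3-only genes, BCL2L11, which encodes BIM, was lower in all resistant libraries by a small amount. It lies on the plus strand at chr2:111119378-111168447. Its level was 2.74, 2.16 and 2.30 FPKM in HCC827/GR against 3.03 and 3.05 FPKM in HCC827. The HCC827 libraries were nearly equal and the highest resistant library stayed below them. The means were 2.40 ± 0.305 FPKM (SD, n = 3) and 3.04 ± 0.0160 FPKM (SD, n = 2), and the log2 fold change was -0.25 (SE 0.11, 95% interval -0.55 to 0.04, limma adjusted p = 0.237). Its sign was the same under all 15 alternatives, between -0.34 and -0.16. The entry joins 24 Ensembl transcripts, among which BIM splice forms of different potency cannot be told apart.

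PMAIP1 encodes NOXA, the BH3-only partner that binds MCL1, and it was the most abundant BH3-only gene by mean FPKM in both lines. It lies on the plus strand at chr18:59899948-59904306. Its level was 6.62, 7.13 and 10.1 FPKM in HCC827/GR against 12.4 and 3.71 FPKM in HCC827. The parental libraries were the highest and the lowest of all, with the resistant ones between them. The log2 fold change was 0.15 (SE 0.48, 95% interval -1.11 to 1.41, limma adjusted p = 0.876), and it ran from -0.60 without HCC827 replicate 3 to 0.91 without HCC827 replicate 2.

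BID links death receptors to the mitochondrion once caspase 8 has cut it. It lies on the minus strand at chr22:17734138-17774770. The level was 3.89, 3.64 and 2.72 FPKM in HCC827/GR against 3.27 and 2.41 FPKM in HCC827, overlapping groups with a log2 fold change of 0.20 (SE 0.18, 95% interval -0.26 to 0.66, limma adjusted p = 0.530). With a library left out it ranged from 0.04 without HCC827 replicate 3 to 0.37 without HCC827 replicate 2. That entry is 1 transcript assembled by the authors with no Ensembl transcript in it. A lower entry of the same symbol, which holds 12 Ensembl transcripts and was tried after the data were seen, gave a log2 fold change of 0.19 with an adjusted p of 0.589.

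BMF, a BH3-only protein tied to the cytoskeleton, lies on the minus strand at chr15:40087890-40108892. It was at 1.49, 0.845 and 0.477 FPKM in HCC827/GR against 0.896 and 2.08 FPKM in HCC827. The groups overlapped, and the log2 fold change was -0.35 (SE 0.32, 95% interval -1.19 to 0.48, limma adjusted p = 0.546). It ranged from -0.70 without HCC827 replicate 2 to 0.00 without HCC827 replicate 3.

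BBC3 encodes PUMA, a strong activator of apoptosis under p53, and lies on the minus strand at chr19:47220822-47232766. It was the lowest BH3-only gene, at 0.0732, 0.232 and 0.331 FPKM in HCC827/GR against 0.166 and 0.189 FPKM in HCC827. The parental libraries lay inside the range of the resistant ones. With no filter on low values its log2 fold change was 0.04, with an adjusted p of 0.876.

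The effector BAX was lower in all resistant libraries and the effector BAK1 was not. BAX lies on the plus strand at chr19:48954815-48961798 and was at 5.48, 7.35 and 7.39 FPKM in HCC827/GR against 8.06 and 8.97 FPKM in HCC827. Its groups did not overlap, and the log2 fold change was -0.31 (SE 0.15, 95% interval -0.71 to 0.10, limma adjusted p = 0.287), or -0.18 without HCC827/GR replicate 1. BAK1 lies on the minus strand at chr6:33572547-33580293 and was at 4.28, 3.62 and 3.43 FPKM in HCC827/GR against 3.54 and 2.83 FPKM in HCC827. Its groups overlapped, with a log2 fold change of 0.19 (SE 0.13, 95% interval -0.16 to 0.54, limma adjusted p = 0.423), between 0.07 without HCC827 replicate 3 and 0.31 without HCC827 replicate 2.

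The ratio of BAX to BAK1, taken within each library, was 1.28, 2.03 and 2.15 in HCC827/GR against 2.28 and 3.17 in HCC827. BAX was thus the more abundant effector in each library, by a smaller factor in the resistant ones, and the groups did not overlap. With 3 against 2 libraries an exact two-sided permutation test cannot go below p = 0.1, so that test could not put such a ratio under 0.05, and the ratio is given as a description.

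FPKM is a level per length, so members can be ordered by mean level within a line. In HCC827 the order from the top was MCL1 at 11.4, BAX at 8.52, PMAIP1 at 8.06 and BCL2L1 at 4.76 FPKM. In HCC827/GR it was MCL1 at 16.6, PMAIP1 at 7.96, BCL2L1 at 7.28 and BAX at 6.74 FPKM. In HCC827/GR each of these 4 genes overlapped with the next in the order, so neighbours in it do not differ beyond their spread, and without replicate 1 the means of MCL1 and BCL2L1 were 9.28 and 9.32 FPKM. In HCC827 the 2 libraries of PMAIP1, at 12.4 and 3.71 FPKM, spanned those of the other 3 genes, while MCL1 was above BAX and BAX above BCL2L1 in each library. Then came BAK1, BID and BCL2L11, between 2.40 and 3.78 FPKM in both lines. In HCC827 the order of these genes was within the spread. In HCC827/GR the libraries of BID overlapped with those of BAK1 and of BCL2L11. The place of BID is that of its assembled entry. Its entry with Ensembl transcripts averaged 1.44 FPKM in HCC827/GR and 1.18 FPKM in HCC827, below BCL2L11 in both lines. At the bottom BCL2 was last in HCC827, below BBC3, and in HCC827/GR it was above BMF and BBC3, though its lowest library, at 0.475 FPKM, was below the lowest of BMF, at 0.477 FPKM.

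Several members varied widely between libraries of 1 line. Within HCC827/GR the highest library was 4.52-fold above the lowest for BBC3, 3.90-fold for BCL2, 3.62-fold for MCL1, 3.19-fold for BCL2L1 and 3.12-fold for BMF. It was 1.25-fold for BAK1, 1.27-fold for BCL2L11 and 1.35-fold for BAX. Within HCC827 the same measure was 9.95 for BCL2, at values near 0, then 3.35 for PMAIP1 and 2.32 for BMF, and it was lowest, at 1.01, for BCL2L11. BCL2L11, BAX and BAK1 were thus the members with the least spread among the resistant libraries.

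Summed over class, the 3 anti-apoptotic members came to 35.8, 20.6 and 19.0 FPKM in HCC827/GR against 15.0 and 17.3 FPKM in HCC827. All resistant sums were above both parental ones. The highest of them, replicate 1, was 87.5% MCL1 and 8.8% BCL2L1. In replicates 2 and 3 MCL1 made up 42.1% and 52.0% of the sum and BCL2L1 48.9% and 45.5%. BCL2 added from 2.5% to 9.01% of the sum in HCC827/GR and at most 0.0910% in HCC827. MCL1 and BCL2L1 thus took different shares in replicate 1 than in the other resistant libraries.

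The 7 pro-apoptotic members summed to 24.6, 25 and 26.8 FPKM in HCC827/GR against 31.4 and 23.2 FPKM in HCC827, so the groups overlapped. BID entered the sums by its assembled entry, the higher of its entries. The 5 BH3-only genes made up 14.8, 14.0 and 16 FPKM of it in HCC827/GR against 19.8 and 11.4 FPKM in HCC827, and PMAIP1 supplied 62.7% of the higher parental sum and 32.4% of the lower. The 2 effectors summed to 9.76, 11.0 and 10.8 FPKM in HCC827/GR and to 11.6 and 11.8 FPKM in HCC827, slightly lower in each resistant library.

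The ratio of the pro-apoptotic to the anti-apoptotic sum was 0.686, 1.22 and 1.41 in HCC827/GR against 2.09 and 1.34 in HCC827. Replicate 3 of HCC827/GR was above replicate 3 of HCC827, so the ratios overlapped, with means of 1.11 ± 0.375 (SD, n = 3) and 1.72 ± 0.530 (SD, n = 2). For BCL2L11 alone, the ratio to the anti-apoptotic sum was 0.0766, 0.105 and 0.121 in HCC827/GR against 0.202 and 0.176 in HCC827. Here each resistant library was below both parental ones. Against MCL1 alone, the ratio of BCL2L11 was 0.0876, 0.25 and 0.232 in HCC827/GR against 0.27 and 0.263 in HCC827, also without overlap. Against BCL2L1 alone it was 0.871, 0.215 and 0.266 in HCC827/GR against 0.797 and 0.534 in HCC827, and there the groups overlapped. The ratio of BAX to BCL2L1 overlapped as well, at 1.74, 0.732 and 0.856 in HCC827/GR against 2.12 and 1.57 in HCC827. The ratio of BCL2L11 to the anti-apoptotic sum joins the smaller numerator and the larger sum already given, and a sum of FPKM gives each member equal weight, which says nothing of protein.

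**Figure D3:**
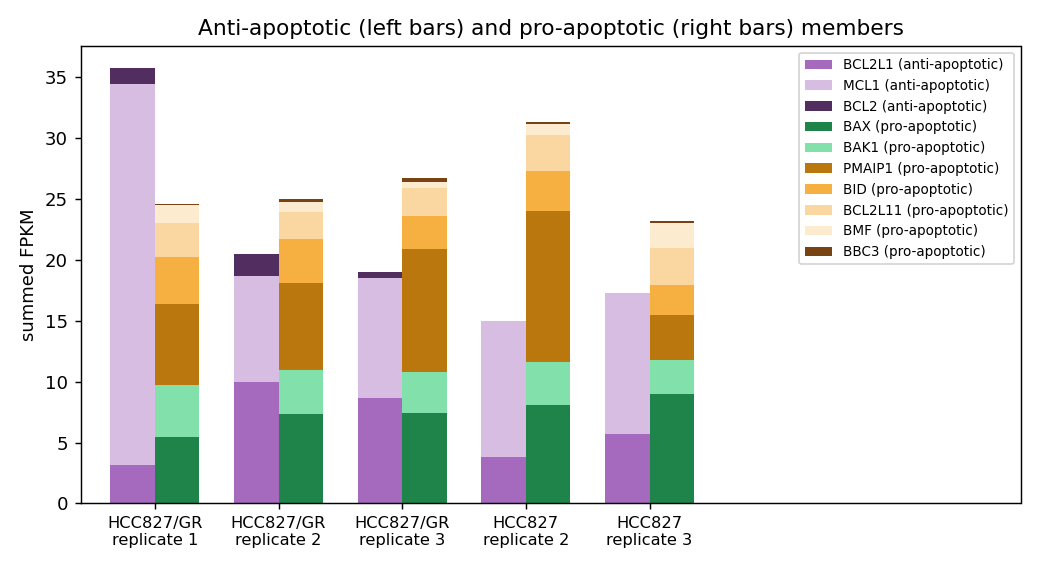
Summed FPKM of the 3 anti-apoptotic members (left bar) and the 7 pro-apoptotic members (right bar) in each library, with each gene as a segment. The anti-apoptotic bar is taller than the pro-apoptotic one only in HCC827/GR replicate 1, where MCL1 makes up 87.5% of it, and the anti-apoptotic bars of HCC827/GR (19.0 to 35.8 FPKM) are all above those of HCC827 (15.0 and 17.3 FPKM).

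Around the family, 52 genes of 9 lists were examined: other relatives, the caspase machinery downstream, the inhibitors of apoptosis (IAPs), the death receptor route, binding partners, regulators of BH3-only genes, other p53 targets and the turnover of MCL1. An entry was found for 49 of them, and 44 were tested. By limma's adjusted p under 0.05, 1 rose and 2 fell in HCC827/GR, against the 5.26% and 5.71% of all entries given above. As shares of the 44 genes tested, these counts were not above the background. The lists were chosen with earlier results of these data known. Their median log2 fold change was -0.05.

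The 1 that rose was BOK, a relative of BAX and BAK1 that can form pores on its own. It was at 2.92, 3.54 and 2.90 FPKM in HCC827/GR against 1.23 and 1.23 FPKM in HCC827. The resistant libraries were all above the equal parental ones, with a log2 fold change of 0.88 (SE 0.11, limma adjusted p = 0.0164). The call was lost without HCC827/GR replicate 1 (adjusted p = 0.0620), without HCC827 replicate 2 (0.0917) and without HCC827 replicate 3 (0.0853), at log2 fold changes of 0.92, 0.88 and 0.88. The other 4 pro-apoptotic relatives tested did not pass, among them BNIP3L, a mitophagy receptor and the most abundant of the list, with a log2 fold change of -0.93. The 1 other anti-apoptotic relative tested, BCL2A1, had a log2 fold change of -0.46 and did not pass.

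XIAP, the inhibitor that binds caspases 3, 7 and 9 directly, fell. It was at 5.82, 6.60 and 5.54 FPKM in HCC827/GR against 14.2 and 15.3 FPKM in HCC827. The groups were far apart, with a log2 fold change of -1.18 (SE 0.11, limma adjusted p = 0.00862), and the call was lost without HCC827 replicate 3 (adjusted p = 0.0517), at a log2 fold change of -1.13. Of the other 4 genes of the IAP list none passed, and BIRC2, the most abundant, had a log2 fold change of 0.04.

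CDKN1A, the p53 target that encodes the cell cycle inhibitor p21, fell as well. It was at 0.461, 0.556 and 0.834 FPKM in HCC827/GR against 1.87 and 2 FPKM in HCC827, with no overlap and a log2 fold change of -0.87 (SE 0.15, limma adjusted p = 0.0308). The call was kept without HCC827/GR replicate 3 and lost without each of the other libraries, with adjusted p-values from 0.0875 to 0.118 at log2 fold changes from -0.90 to -0.80, and it was also lost with no filter (0.0746) and with quantile normalization (0.0553), at -0.87 and -0.81. Ballgown's model, which called only 6 entries of the whole table higher and 9 lower, made none of the 3 calls. Its adjusted p-values were 0.234 for BOK, 0.205 for XIAP and 0.154 for CDKN1A, at log2 fold changes of 0.88, -1.15 and -1.02. The other 7 p53 targets did not pass, including MDM2, the ubiquitin ligase of p53, with a log2 fold change of -0.40.

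No gene passed in the 5 lists that remain. The 6 tested regulators of BH3-only genes had a median log2 fold change of -0.22, and 3 of them, DDIT3, FOXO1 and FOXO3, were within 0.08 of 0. The most abundant of them, the stress response factor ATF4, was at 11.7, 56.5 and 46.2 FPKM in HCC827/GR against 95.9 and 16.8 FPKM in HCC827, so that the parental libraries were the highest and the second lowest. In the list of MCL1 turnover, which holds ligases and a deubiquitinase that act on the protein, the median log2 fold change of the 5 genes was 0.14, and HUWE1, the most abundant, was at 0.04. The 4 binding partners had a median of 0.27, and VDAC2, the channel protein that holds BAK1 at the mitochondrion, was at 37.2, 38.2 and 42.4 FPKM in HCC827/GR against 30.5 and 33.6 FPKM in HCC827.

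Downstream, the 5 apoptosome and caspase genes had a median log2 fold change of -0.07. CYCS, which encodes cytochrome c, was at 3.24, 5.45 and 30.7 FPKM in HCC827/GR against 4.12 and 3.85 FPKM in HCC827, so its high mean in the resistant line came from replicate 3. The 5 genes of the death receptor route had a median of -0.10, and the adaptor FADD, the most abundant, also had a log2 fold change of -0.10.

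**Figure D4:**
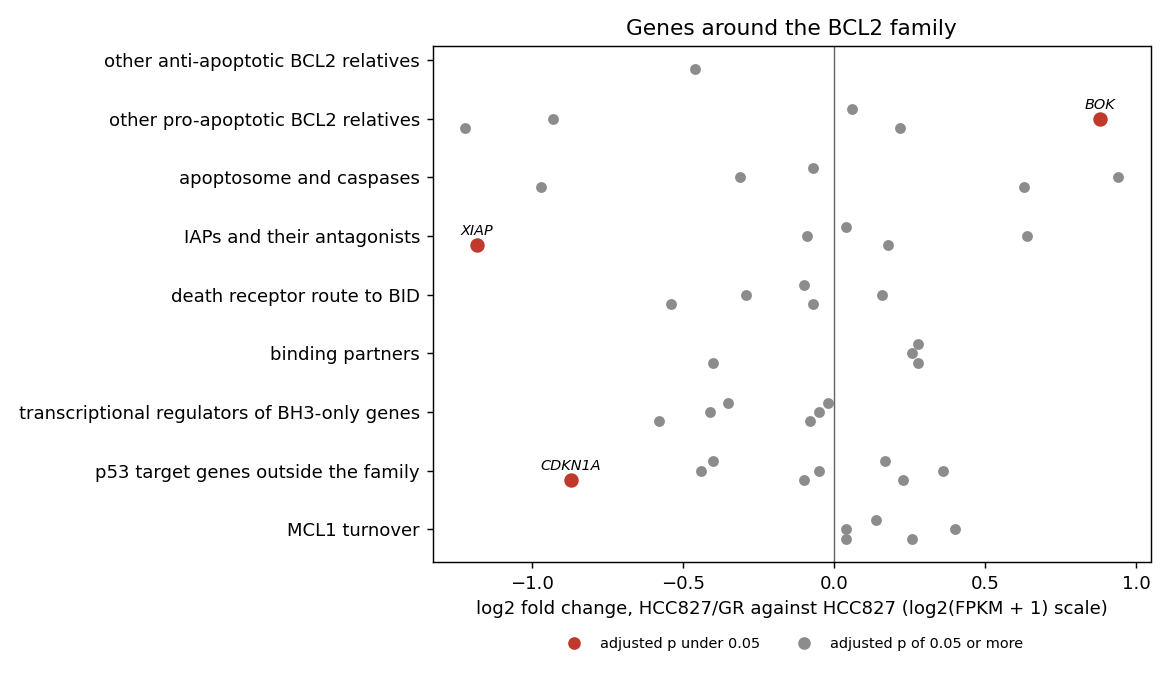
Log2 fold change, HCC827/GR minus HCC827 in log2(FPKM + 1), for the 44 tested genes of the 9 lists, 1 point per gene and 1 row per list. The 3 genes with an adjusted p under 0.05 are red and named: BOK at 0.88, XIAP at -1.18 and CDKN1A at -0.87.

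BCL2L11 is a textbook target of the FOXO factors, which EGFR signalling through AKT keeps out of the nucleus, and its start region was examined for their motif. In the 250 bases before the RefSeq start (GRCh38.p14), the letters TGTTTAC or, on the other strand, GTAAACA were found in BCL2L11 alone of the 9 members with an entry in the promoter table, in 1 of their 15 windows, and in 2.98% of all 35116 such windows. The match begins 223 bases before the RefSeq start. It lies inside the gene's span given above from GENCODE, which begins further upstream, at chr2:111119378. The window around the match is shown with the matching letters in capitals.
BCL2L11 (chr2:111120680-111120709, plus strand): gagttactccgGTAAACAcgccagggacgg

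The mRNA of FOXO3 was at 8.28, 7.12 and 9.36 FPKM in HCC827/GR against 8.82 and 8.63 FPKM in HCC827, overlapping groups with a log2 fold change of -0.08. FOXO1 had a log2 fold change of -0.05. Where these factors lie in the cell was not measured, and a match of letters is not a binding site. The E-box CAGGTG or CACCTG, the letters that repressors of the epithelial state bind, was in 1 of the 2 windows of BMF and in the window of BAX, or 2 of the members' 15 windows, against 17.5% of all windows. The GC box GGGCGG or CCGCCC was in 9 of the 15 windows, 4 of them from BID, which has 5 windows, against 42.6% of all windows. MCL1 had no entry in the promoter table.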

How the data were processed

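RNA sequencing of 3 HCC827/GR and 2 HCC827 libraries was analysed from the deposited table. The authors trimmed reads with Cutadapt, checked them with FastQC, mapped them with Bowtie2 and TopHat2, assembled transcripts with StringTie and merged them, and estimated FPKM with StringTie and Ballgown. The FPKM values were deposited per entry, normalised to transcript length and mapped fragments, and were not rescaled here. The submitters' notes name hg18, while 135164 of the 135299 Ensembl transcript identifiers in the table are in GENCODE release 29, from which positions in GRCh38 were taken by identifier. The labels describe a small RNA library and the study's methods an mRNA library depleted of ribosomal RNA. A further 1 FPKM column, GS_1, was named like the columns of the parental line but matched no sample, and it was left out.

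HCC827/GR was compared with HCC827 by limma 3.58.1 in R 4.3.3 (moderated linear model with a trend) on log2(FPKM + 1), for entries averaging 0.5 FPKM or more, with Benjamini-Hochberg adjustment over all of them. A fit of the same kind was tested on simulated data, of which no result is given or used here. The alternatives were a pseudocount of 0.1 FPKM, a filter at 1 FPKM or none, limma with no trend, quantile normalization, median-ratio scaling, Ballgown's model, the replicate number as a block, summed entries of 1 symbol and each library left out. Named from each list were the genes with an adjusted p under 0.05 and the most abundant gene. DDIT3, FOXO1 and FOXO3 were named after their values were seen. BIK and BCL2L2 were also named outside this rule. The members and lists were chosen with earlier results of these data known. Motif counts and plots used Python 3.11.15, and promoter windows were from RefSeq.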

Additional observations from a re-analysis of the deposited data

How the results depend on the processing

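Of 126 log2 fold changes of members that had an adjusted p under an alternative, 124 kept their side of 0.05. That tally includes Ballgown's model and the replicate block, which called few or no entries of the whole table. A member could hardly have gained a call there. The count of members called higher, 0, became 1 with a pseudocount of 0.1 and ranged from 0 to 1 over the libraries left out, the member being BCL2 both times, and the log2 ratio of its mean FPKM was 7.14. No member was called lower under any of them. The anti-apoptotic median of 0.42 was 1.03 by Ballgown's model, 0.86 with the replicate number as a block, and 0.25 to 0.86 with a library left out. BCL2, BCL2L11, BID, BAX and BAK1 kept their sign under all alternatives that tested them. BCL2 was not tested with the filter at 1 FPKM. BCL2L1, MCL1, PMAIP1 and BMF reached 0 or the other sign in 1, 2, 4 and 1 of the alternatives. For the whole table, the 851 higher entries became 504 with no filter, 6 by Ballgown's model and 202 to 485 with a library left out, and the 924 lower entries became 9 and 287 to 477. Of the list genes, the 1 higher became 0 by Ballgown's model and 0 to 2 with a library left out, and the 2 lower became 1 with quantile normalization, 0 by Ballgown's model and 0 to 3. The cause of these shifts was not tested. A fit with a library left out has fewer libraries as well as different ones, and these were not separated.

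The 2 groups share replicate numbers 2 and 3, whose libraries' deviations correlated at 0.033 and 0.015. These values give no sign of more than a shared number. The deviations of the 2 HCC827 libraries mirror each other, so the values hold little information on a shared batch. With a replicate block, which leaves HCC827/GR replicate 1 without a partner, 0 entries of the table were called higher and 0 lower, as were 0 and 0 list genes and 0 members. With the FPKM alone, no counting error can be given for low members such as BCL2 and BBC3 in HCC827. A lone HCC827 library, left when the other was dropped, was assumed to vary like HCC827/GR.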

Other observations

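Beside BCL2 on chromosome 18, the nearest 3 protein-coding genes with an entry were examined on each side. All 5 that were tested had a log2 fold change below 0 on the log2(FPKM + 1) scale: ZCCHC2 at -0.71, PHLPP1 at -0.47, KDSR at -0.34, VPS4B at -0.81 and SERPINB5 at -2.62. Of all 16189 entries tested, 8064 were below 0 as well. By limma's adjusted p, PHLPP1 (0.0475), VPS4B (0.0445) and SERPINB5 (0.00248) passed 0.05, against 5.71% of all entries tested that passed and were lower. ZCCHC2 (0.0548) and KDSR (0.630) did not, and the groups of KDSR overlapped. SERPINB5, the epithelial gene that encodes maspin, was at 0, 0 and 0.00782 FPKM in HCC827/GR against 5.78 and 4.58 FPKM in HCC827, and it passed the filter on low values only through HCC827. TNFRSF11A, below the filter, was at 0.258, 0.227 and 0.276 FPKM in HCC827/GR against 0.0827 and 0.203 FPKM in HCC827.

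Beside MCL1 on chromosome 1, ADAMTSL4, whose antisense gene shares the MCL1 entry, was at 2.99, 2.75 and 2.03 FPKM in HCC827/GR against 0.555 and 0.380 FPKM in HCC827, and it passed the filter on low values only through HCC827/GR. While MCL1 was over 2-fold above every other library in HCC827/GR replicate 1, none of the tested neighbours TARS2, ADAMTSL4, ENSA and GOLPH3L was. The anti-apoptotic relative BCL2L2, below the filter, was also highest in that library, at 1.46 FPKM against 0 and 0.147 FPKM in the other resistant libraries and 0.0793 and 0 FPKM in HCC827.

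The BH3-only gene BIK, named after its values were seen, was at 1.82, 1.64 and 3.84 FPKM in HCC827/GR against 5.92 and 7.51 FPKM in HCC827, with a log2 fold change of -1.22 that did not pass the test (limma adjusted p = 0.0775). Without HCC827/GR replicate 3 it was -1.49, with a limma adjusted p of 0.0360, the lowest over its alternatives, of which the highest was 0.279.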
